A study of Homo sapiens with 2 samples.

Results

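Granins and prohormone processing enzymes are the proteins with which endocrine cells fill their secretory granules and cut their hormones. They were followed here as 10 genes of a fixed list, CHGA, CHGB, SCG2, SCG3, SCG5, PCSK1, PCSK2, PCSK1N, CPE and PAM, each of which matched exactly 1 row by gene symbol among the 55797 genes in the deposited files. The study asked whether fixing, staining and sorting cells changes the representation of transcripts. H1 cells, an established human embryonic stem cell line, were differentiated to Stage 6, a mixed culture that contains insulin-expressing cells, and gave 2 samples. The study's methods do not say whether both sequenced samples came from 1 culture. RNA of live cells was taken at once with the RNeasy kit. Processed cells were fixed with 4% paraformaldehyde, permeabilized, stained with antibody and passed through the sorter with every cell collected, and their RNA was taken with a modified RecoverAll kit. Each condition has 1 library, sequenced as paired reads of 80 nt, so no difference below has a replicate check or a p-value.

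Levels are in FPKM, fragments scaled to the length of the gene and to the size of the library, as the authors deposited them with a lower and an upper bound. FPKM values summed to 510713 in live and 499398 in processed cells. Read counts were not used here, but low FPKM values fell on steps, and from these the FPKM of 1 fragment was 1.07 times larger in the processed library. Log2 ratios are log2((processed FPKM + 1) / (live FPKM + 1)), which understates changes at low FPKM, whereas fold values are plain ratios of FPKM. A bound or range in brackets describes the precision within these libraries alone, and the level of the bounds is not stated in the files. Positions are on GRCh37/hg19.

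Hormones such as insulin and glucagon are made as inactive precursors. In the regulated secretory pathway, the granins aggregate with these precursors and help to form dense-core granules, the convertases PC1/3 and PC2 cut at pairs of basic residues, carboxypeptidase E removes the exposed basic residues and peptidylglycine alpha-amidating monooxygenase amidates the end of some peptides. Granins, chromogranin A above all, are general markers of neuroendocrine cells, whether of islets, gut or adrenal medulla.

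The promoters of CHGA, the highest of the 10 genes in FPKM, and of PCSK1, the gene with the largest ratio between live and processed cells, are shown because both hold the cyclic AMP response element for which they are known. The sequences are the 250 bases before a transcript start, 5′ to 3′ on the strand of the gene, from RefSeq on GRCh38.p14, at chr14:92922900-92923149 (plus strand) for CHGA and chr5:96433249-96433498 (minus strand) for PCSK1. Capitals mark TGACGTCA, which reads the same on both strands and starts 54 bases before the CHGA start and 77 bases before the PCSK1 start.
CHGA: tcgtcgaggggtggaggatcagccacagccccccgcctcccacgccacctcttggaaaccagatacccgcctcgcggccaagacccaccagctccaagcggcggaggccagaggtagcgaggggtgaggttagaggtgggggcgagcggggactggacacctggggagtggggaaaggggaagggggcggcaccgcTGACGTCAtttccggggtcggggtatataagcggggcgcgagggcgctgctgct
PCSK1: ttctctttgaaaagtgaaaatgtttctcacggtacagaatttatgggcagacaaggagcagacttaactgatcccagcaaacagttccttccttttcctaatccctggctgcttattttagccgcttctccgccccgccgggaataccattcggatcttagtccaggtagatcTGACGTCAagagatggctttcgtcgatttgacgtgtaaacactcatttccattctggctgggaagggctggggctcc

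The element was found in 2 of the 12 windows that RefSeq gave for 8 of the 10 genes, and in 1.65% of all 35116 windows of the same length. It was the only element searched for, and was chosen because CHGA and PCSK1 are known for it. Its presence there was thus fixed in advance, and these shares are no test of enrichment. PCSK1 had 2 windows, of which only the 1 shown held the element, and CHGB and SCG2 had no window. The element was shared by CHGA, with 1794 and 1741 FPKM, and by PCSK1, with 3.03 and 0.754 FPKM.

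In live cells all 10 genes passed an FPKM of 1, and in processed cells 9 did, PCSK1 being the exception. Of the 10, 8 had a lower FPKM in processed than in live cells, where 58.3% of the 17326 genes tested, those reaching an FPKM of 1 in either sample, did. The deposited bounds were separate and lower in processed cells for 5 genes, PCSK1, CHGB, CPE, SCG2 and PCSK2, against 43.7% of all genes tested, and separate and higher for 1 gene, SCG5, against 28.1%. PCSK1 alone was below the 2-fold line of the log2 ratio, against 6.19% of all genes tested, and 0 of the 10 were above that line, against 6.57%. The count below the line and the count with lower bounds thus lie near the shares among genes in general. The median log2 ratio of the 10 genes was -0.33 and that of all genes tested -0.09. Fewer cells of a type and less RNA per cell cannot be told apart in such bulk samples. Rescaling processed cells by the median ratio between the libraries, 0.932, changed the split of separate bounds among the 10 genes. It became 4 lower (PCSK1, CHGB, CPE and SCG2) and 3 higher (SCG5, SCG3 and PCSK1N), beside 35.7% and 34.8% of all genes tested. Both counts lie near these shares. The rescaling also turned the log2 ratios of CHGA and PCSK1N positive. Among all genes with separate bounds, it raised the higher share from 39.1% to 49.4%.

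**Figure D1:**
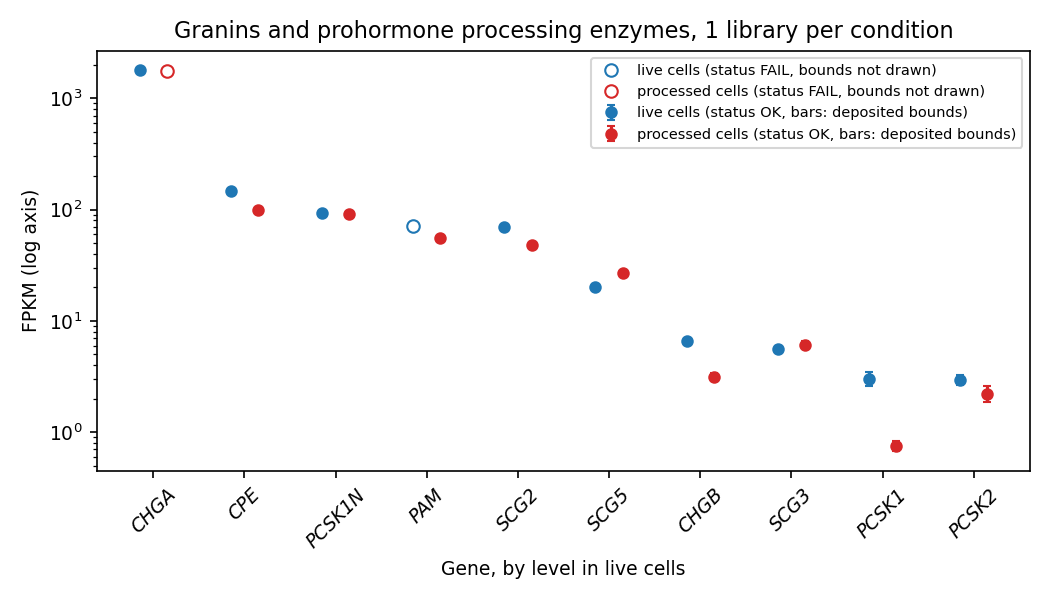
FPKM (log axis) of the 10 genes in live (blue) and processed (red) cells, 1 library each, ordered by the level in live cells. Bars are the deposited bounds, and open circles mark CHGA in processed and PAM in live cells, whose estimate had status FAIL. CHGA stands at 1794 and 1741 FPKM, and PCSK1 at 3.03 and 0.754 FPKM.

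CHGA (ENSG00000100604.7, plus strand of chromosome 14, 93389425 to 93401638), which encodes chromogranin A, had 1794 FPKM in live cells (bounds 1787 to 1800.5) and 1741 FPKM in processed cells, a log2 ratio of -0.04. Among all 55797 genes it ranked 23rd live and 24th processed. CHGA alone made up 81.1% of the summed FPKM of the 10 genes live and 84.0% processed. Its level was 3.52 times the summed FPKM of the hormone genes INS, GCG, SST and GHRL in live cells and 3.10 times in processed cells. In processed cells the value carries status FAIL, the program's mark for a numerical failure of the estimate, with bounds from 0 to 4712 FPKM, so no statement on its precision there is possible.

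The other granins were far lower than CHGA. SCG2 (ENSG00000171951.4, minus strand of chromosome 2, 224461658 to 224467221), which encodes secretogranin II, had 69.7 FPKM in live cells (bounds 68.6 to 70.8) and 47.8 FPKM in processed cells (46.9 to 48.7). It was 1.46-fold lower in processed cells (range from the bounds 1.41 to 1.51), a log2 ratio of -0.53. At a mean FPKM from 30 to 100, 5.42% of 2214 genes had a lower log2 ratio than SCG2.

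CHGB (ENSG00000089199.5, plus strand of chromosome 20, 5892076 to 5906007), which encodes chromogranin B, had 6.56 FPKM in live cells (bounds 6.23 to 6.90) and 3.16 FPKM in processed cells (2.89 to 3.44). The fold was 2.07 lower in processed cells (1.81 to 2.39), and the log2 ratio of -0.86 stays within 2-fold only through the pseudocount of 1. SCG3 (ENSG00000104112.4, plus strand of chromosome 15, 51973550 to 52013223), which encodes secretogranin III, an adaptor that holds chromogranin A at the granule membrane, had 5.61 FPKM in live cells (5.21 to 6.01) and 6.13 FPKM in processed cells (5.67 to 6.58), with overlapping bounds. CHGB and SCG3 therefore changed places in the order of levels, with CHGB above SCG3 in live cells and SCG3 1.94 times above CHGB in processed cells, and their bounds were separate within each library. The ratio of CHGA to CHGB was 273 in live cells and 551 in processed cells, the second without a usable range.

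PCSK1 (ENSG00000175426.6, minus strand of chromosome 5, 95726119 to 95769847), which encodes the convertase PC1/3 that starts the cutting of proinsulin, had 3.03 FPKM in live cells (bounds 2.59 to 3.47) and 0.754 FPKM in processed cells (0.672 to 0.836). It was 4.02-fold lower in processed cells (range 3.10 to 5.16), with a log2 ratio of -1.20, the lowest of the 10 genes. Genes of its level scattered widely. At a mean FPKM from 1 to 3, 8.19% of 3432 genes had a lower log2 ratio than PCSK1, and the 5th percentile of these genes was -1.56.

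The precision of PCSK1 also differed between the libraries. The upper bound lay 14.5% above the value in live cells, where 2 standard deviations of fragment counting along its longest transcript would give 5.16%, and 10.9% above it in processed cells, where counting would give 10.7%. Bounds wider than counting were not particular to PCSK1. They were 1.89 and 2.49 times the counting value for PCSK2 in live and processed cells, 1.98 and 1.26 times for CPE, 1.46 and 1.53 times for SCG3 and 1.37 and 1.44 times for SCG5, and between 0.984 and 1.12 times for CHGB, SCG2 and PCSK1N. PCSK1 has 4 transcripts from 565 to 5136 nt in GENCODE release 44, which is later than the models behind the deposited FPKM. How fragments were divided among the transcripts of those earlier models was not tested. PCSK1 lies on the minus strand within the span of CTD-2337A12.1 (chromosome 5, 95297705 to 95970220), a long non-coding RNA on the plus strand, with 0 bases of exon in common. This RNA was higher in processed cells, at 1.78 FPKM (1.32 to 2.23) against 0.272 FPKM (0.0994 to 0.444) in live cells, and its part in the PCSK1 values was not tested. Of the other genes inside the spans of the 10, HADHAP1 in CPE had 0.478 and 0.137 FPKM, RP11-1000B6.2 in SCG5, on the other strand with 11 bases of exon in common, was near 0 in live cells and had 0.0429 FPKM in processed cells, and RP11-313P18.1 in SCG3 was near 0 in live cells and listed at 0 in processed cells.

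PCSK2 (ENSG00000125851.5, plus strand of chromosome 20, 17206752 to 17465223), which encodes PC2, the main convertase of proglucagon in alpha cells, had 2.97 FPKM in live cells (2.67 to 3.28) and 2.22 FPKM in processed cells (1.86 to 2.58). The fold was 1.34 lower in processed cells (1.03 to 1.77), and the bounds were only just separate. After division by the median ratio between the libraries they overlapped. In live cells the bounds of PCSK1 and PCSK2 overlapped, and in processed cells PCSK2 was 2.94 times PCSK1 (2.22 to 3.84).

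Each convertase has a small partner protein. PCSK1N (ENSG00000102109.6, minus strand of chromosome X, 48689504 to 48694035) encodes proSAAS, an inhibitor of PC1/3, and had 92.4 FPKM in live cells (90.4 to 94.5) and 90.3 FPKM in processed cells (88.2 to 92.4), with overlapping bounds. SCG5 (ENSG00000166922.4, plus strand of chromosome 15, 32933877 to 32989299) encodes 7B2, which is needed for PC2 to mature and also inhibits it, and had 20.2 FPKM in live cells (19.0 to 21.4) and 26.7 FPKM in processed cells (25.2 to 28.2). SCG5 was 1.32-fold higher in processed cells (1.18 to 1.48), against the direction of PCSK2, and its log2 ratio of 0.39 was the highest of the 10 genes.

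Both partners stood above their convertases. PCSK1N was 30.5 times PCSK1 in live cells (26.1 to 36.5) and 119.8 times in processed cells (106 to 138). SCG5 was 6.80 times PCSK2 in live cells (5.80 to 8.03) and 12.05 times in processed cells (9.78 to 15.2). Neither pair of ranges overlapped, and a ratio within a library does not depend on how the library was scaled. How often such ranges separate among gene pairs in general was not computed. Separate bounds were common among single genes, lower for 43.7% and higher for 28.1% of all genes tested. PCSK1N itself had overlapping bounds, so its ratio to PCSK1 mainly repeats the lower PCSK1 value.

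**Figure D2:**
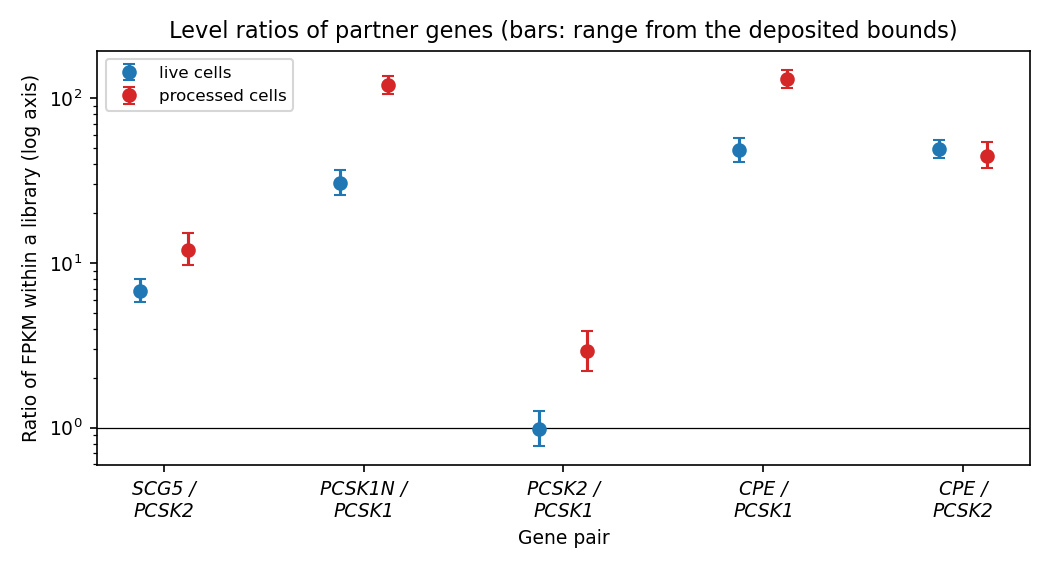
Ratio of FPKM between the genes of a pair within live (blue) and processed (red) cells on a log axis, 1 library each, with bars for the range given by the deposited bounds of both genes. Ranges in the 2 libraries are separate for SCG5 to PCSK2 and for PCSK1N, PCSK2 and CPE to PCSK1, which share the PCSK1 values. CPE to PCSK2 stands at 49.1 and 44.5 with overlapping ranges.

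CPE and PAM act after the convertases. CPE (ENSG00000109472.9, plus strand of chromosome 4, 166282346 to 166419472) was second to CHGA in both libraries, with 146 FPKM in live cells (143 to 149) and 98.8 FPKM in processed cells (97.1 to 100.5). It was 1.48-fold lower in processed cells (1.42 to 1.54), a log2 ratio of -0.56. This is smaller than the ratios of PCSK1 and CHGB, yet it stood further from other genes of its level. At a mean FPKM from 100 to 300, 2.80% of 429 genes had a lower log2 ratio, and their 5th percentile was -0.45. CPE was 49.1 times PCSK2 in live cells (43.6 to 55.9) and 44.5 times in processed cells (37.6 to 54.1), with overlapping ranges.

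PAM (ENSG00000145730.16, plus strand of chromosome 5, 102089685 to 102366809) had 70.7 FPKM in live cells and, in processed cells, 55.4 FPKM (53.5 to 57.3), a log2 ratio of -0.35. The live value carries status FAIL with bounds from 0 to 277 FPKM. PAM had 32 annotated transcripts in GENCODE release 44, the most of the 10 genes, and their lengths ran from 369 to 3993 nt.

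**Figure D3:**
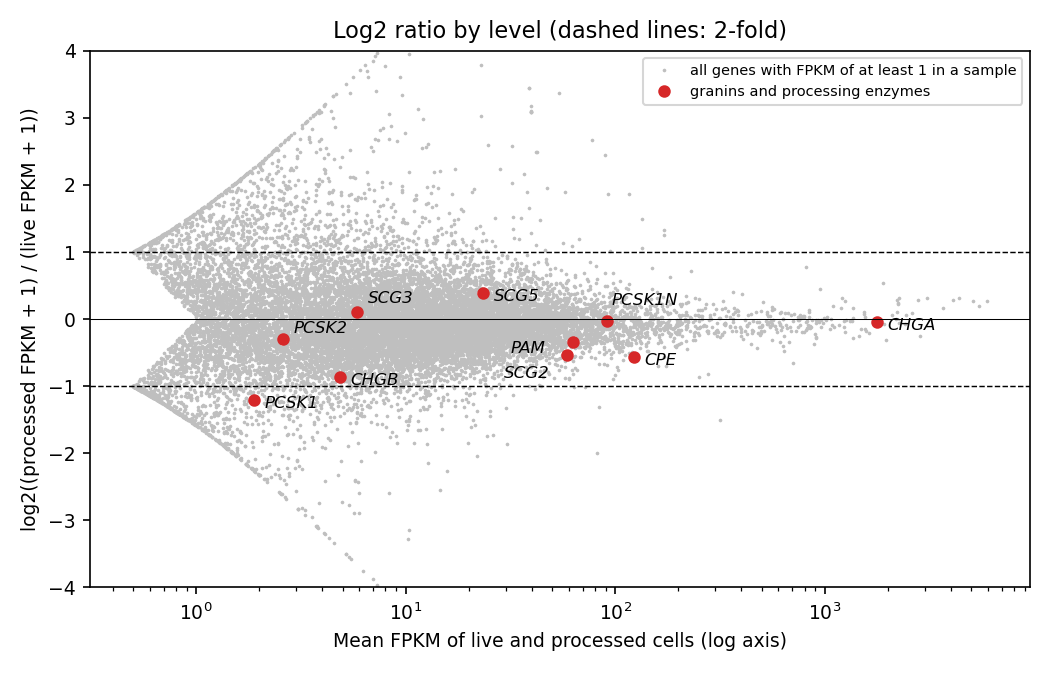
Log2 ratio of processed to live cells (pseudocount 1) against mean FPKM (log axis) for the 17326 genes tested (grey) and the 10 granin and processing genes (red), 1 library per condition. Dashed lines are 2-fold, and 29 genes beyond a log2 ratio of 4 are not drawn. PCSK1 lies below the lower line among widely scattered low genes, and CPE lies within 2-fold at the lower edge of its narrower band.

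Among genes past an FPKM of 1 in live and in processed cells, the median log2 ratio went from -0.02 for the 2685 genes whose main annotated transcript has 1000 to 2000 nt to -0.18 for the 5023 genes with 4000 nt or more. CHGA, SCG5 and PCSK1N belong to the first of these classes and PCSK2 to the second. The main transcript of PCSK1 is as long as those of the second class, at 5136 nt, but PCSK1 is not among its genes, since it stayed below an FPKM of 1 in processed cells. CHGB, SCG2 and CPE have main transcripts of 2000 to 3000 nt, a class with a median of -0.07 over 2650 genes. SCG3 and PAM belong to the class of 3000 to 4000 nt, with a median of -0.11 over 2087 genes. The log2 ratios of SCG3 and PAM were 0.11 and -0.35. The part of transcript length in the ratios of the 10 genes was not tested.

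Precursors of peptide hormones and neuropeptides had separate bounds in both directions. Of 22 genes for peptide hormones and neuropeptides, 14 reached an FPKM of 1 in a sample, with a median log2 ratio of -0.08 that became 0.02 after rescaling by the median ratio between the libraries. Their bounds were separate and higher in processed cells for INS, SST, GHRL, CCK and GAST, and separate and lower for NTS, PENK and ADCYAP1, that is 5 and 3 of 14 beside 28.1% and 43.7% of all genes tested. The overlapping bounds were those of GCG, POMC, GAL, NPPB, SCT and PYY. GAST, the gastrin precursor, had 4.43 FPKM in live cells (3.66 to 5.20) and 17.7 FPKM in processed cells (16.1 to 19.3), and CCK, the cholecystokinin precursor, had 4.79 and 11.2 FPKM. INS had 98.3 FPKM live and 121 FPKM processed, while PCSK1, whose product cuts proinsulin, was lower in processed cells. PENK, the proenkephalin gene, had 6.29 FPKM live and 2.71 FPKM processed. ADCYAP1, the precursor of the neuropeptide PACAP, had 1.76 FPKM live and 0.00340 FPKM processed, the lowest log2 ratio of the list at -1.46. IAPP, the amylin precursor of beta cells, had 0.759 FPKM in live cells and was listed at 0 in processed cells.

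**Figure D4:**
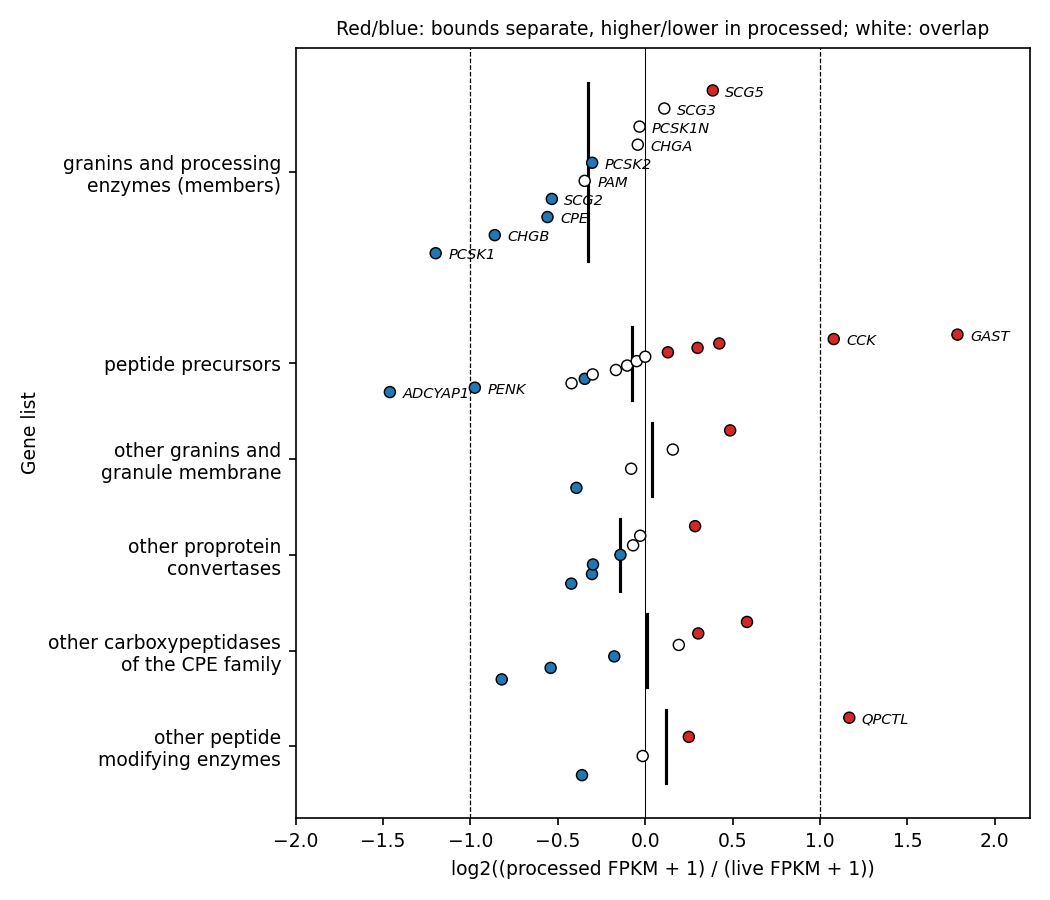
Log2 ratio of processed to live cells (pseudocount 1) for the 10 granin and processing genes and for 5 lists of other genes of the pathway, for genes that reached an FPKM of 1 in either sample, 1 library per condition. Red and blue points have separate bounds (higher and lower in processed cells), white points have overlapping bounds, black bars are medians and dashed lines are 2-fold. The median of the 10 genes is -0.33, and those of the other lists lie between -0.14 and 0.12.

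The other proprotein convertases, which work mostly outside the granule, all reached an FPKM of 1. Of these 7 genes, 4 had separate and lower bounds in processed cells, among them PCSK4, PCSK5 and MBTPS1, and PCSK7 had separate and higher bounds, beside 43.7% lower and 28.1% higher among all genes tested. FURIN, the convertase of the trans-Golgi network, had 31.5 FPKM in live cells (30.7 to 32.4) and 30.9 FPKM in processed cells (29.9 to 31.9), well above the levels of PCSK1 and PCSK2 in each library. None of the 7 passed 2-fold, and their median log2 ratio was -0.14.

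Among 7 relatives of CPE in the metallocarboxypeptidase family, 6 reached an FPKM of 1. Of these, 3 had separate and lower bounds in processed cells (CPD, CPN1 and CPXM1), beside 43.7% of all genes tested. Separate and higher bounds were found for 2 (CPZ and AEBP1), beside 28.1%, and CPM had overlapping bounds. The counts are small and near these shares. The median log2 ratio of the 6 genes was 0.01. CPD, which trims peptides in the trans-Golgi network, had 15.1 FPKM in live cells (14.6 to 15.6) and 10.1 FPKM in processed cells (9.77 to 10.4), a log2 ratio of -0.54 beside -0.56 for CPE. CPXM1, which lacks enzyme activity, had 55.4 and 48.9 FPKM.

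Among the other granule proteins, VGF, a further member of the extended granin family, had 1.32 FPKM in live cells (1.17 to 1.47) and 2.25 FPKM in processed cells (2.05 to 2.45). PTPRN2, a granule membrane protein also called phogrin, had 4.92 FPKM live and 3.51 FPKM processed with separate bounds. Its relative PTPRN, also called IA-2, had 13.2 and 14.8 FPKM with overlapping bounds. CYB561, the granule cytochrome that supplies PAM with electrons, had 13.1 and 12.3 FPKM with overlapping bounds. With 1 of 4 higher and 1 of 4 lower, beside 28.1% and 43.7% of all genes tested, nothing is read from these counts.

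Of 4 other enzymes that modify or cut peptides, QPCTL, a glutaminyl cyclase of the Golgi, had 4.96 FPKM in live cells against 12.4 FPKM in processed cells. It was 2.50-fold higher in processed cells, with separate bounds. Its secreted relative QPCT had 8.15 and 8.06 FPKM with overlapping bounds. The prolyl peptidases went opposite ways, PREP with 19.2 FPKM for live and 23.0 FPKM for processed cells and PRCP with 32.8 and 25.3 FPKM, both with separate bounds. Over the 5 lists together, 35 of 44 genes reached an FPKM of 1, with separate bounds for 11 higher and 12 lower in processed cells, where 28.1% and 43.7% of all genes tested were higher and lower. Their median log2 ratio was -0.07, and rescaling by the median ratio between the libraries turned it to 0.01.

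Marker genes of cell types that make granins were looked at in both libraries, and whether each of these cell types was present was not tested. All 8 transcription factors of endocrine cells on the marker list reached an FPKM of 1, and their summed FPKM was 88.8 in live and 80.2 in processed cells. Of these, 5 had separate and lower bounds in processed cells (INSM1, NKX2-2 and RFX6 among them) and 1 had separate and higher bounds (NEUROD1), beside 43.7% and 28.1% of all genes tested. The median log2 ratio of the 8 was -0.14. INSM1 had 23.4 and 16.3 FPKM. Of the 5 beta cell genes, INS, PDX1 and NKX6-1 reached an FPKM of 1 and IAPP and MAFA did not, and MAFA was listed at 0 in processed cells. Granins are also made by enterochromaffin cells and neurons. Of 5 enterochromaffin genes 3 reached an FPKM of 1 (FEV, DDC and LMX1A), the sum being 51.9 FPKM for live and 58.4 FPKM for processed cells. The higher sum came from DDC alone, with 19.5 and 31.3 FPKM. Of the 3 genes tested, 2 (FEV and LMX1A) had separate and lower bounds in processed cells, beside 43.7% of all genes tested. FEV had 27.2 and 24.1 FPKM and LMX1A 3.88 and 2.78 FPKM. TPH1, the enzyme that defines these cells, had 0.526 and 0.186 FPKM, and SLC18A1 had 0.853 and 0.0161 FPKM. TPH1 and SLC18A1 also had separate and lower bounds, but they stayed below an FPKM of 1 and are not among the genes tested. The 7 neuronal genes all reached an FPKM of 1, with a sum of 197 FPKM for live and 173 FPKM for processed cells. Most of it was TUBB3 with 149 and 129 FPKM. Separate and lower bounds in processed cells were found for 3 (TUBB3, STMN2 and ELAVL4), beside 43.7% of all genes tested. SNAP25, with 5.95 and 8.88 FPKM, was the 1 gene with separate and higher bounds, beside 28.1%. The bounds of ELAVL3, MAP2 and SYP overlapped. The part of these marker genes in the granin values was not tested.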

How the data were processed

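Poly-A purified RNA of 1 live and 1 processed Stage 6 sample was sequenced. Per the labels and the study's methods, the authors aligned reads to GRCh37/hg19 with the program STAR, version 2.2.0c, using GENCODE models, and computed FPKM per gene with the Cufflinks package (version 2.0.2). The deposited FPKM values carry bounds and a status. Samples were joined by gene identifier. Genes reaching an FPKM of 1 in either sample were tested for passing 2-fold (pseudocount 1) or for bounds that do not overlap. Transcript numbers and lengths came from GENCODE release 44 on GRCh37, which held all 10 genes and 94.5% of the identifiers. The authors used an earlier GENCODE release, so the transcripts behind the FPKM values can differ. The FPKM of 1 fragment was the fullest step of FPKM times length less 170 nt in genes with a single transcript. Counting errors are 2 standard deviations of a Poisson count. Python 3.11.15, numpy 2.4.6 and pandas 2.3.3 were used. The code for the calls was run on simulated libraries with counting noise only. Such libraries cannot show how often unchanged genes have separate bounds in the real ones. The 10 genes, the 5 lists and the markers were chosen with earlier results of these data known. Named genes are the 10 genes, genes that overlap them and list genes with an FPKM of at least 1. IAPP, MAFA, TPH1 and SLC18A1 were named in addition, after their values had been seen. Alternatives covered pseudocount, filters, scaling, gene type, status and fold.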

Additional observations from a re-analysis of the deposited data

How the results depend on the processing

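No paired analysis was possible because each condition has 1 sample, and for the same reason no sample could be left out. The number of the 10 genes more than 2-fold lower in processed cells was 1 as reported, beside 6.19% of all genes tested. It was 2 with a pseudocount of 0.1, without a pseudocount or at 1.5-fold (CHGB being the gene added), where the share of all genes also went up, to 10.1%, 9.51% and 15.6%. It was 0 where an FPKM of 10 was required, since PCSK1 is then not tested. With separate bounds, the number higher went from 1 to 3 after division by the median ratio (34.8% of all genes) and to 0 where a change of 1.5-fold was asked as well (12.02% of all genes). The number lower went from 5 of 10 to 2 of the 6 genes that reach an FPKM of 10 (47.2% of all genes) and to 2 of 10 with the 1.5-fold condition (14.8% of all genes). Over the 5 lists together, the number more than 2-fold lower went from 1 to 3 with a pseudocount of 0.1 or none. The shares of all genes were then 10.1% and 9.51%. At an FPKM of at least 10 that number was 0 (2.02% of all genes). There the number with separate and lower bounds went from 12 to 6 (47.2% of all genes). Counts within single lists, which hold few genes, moved by more than 1.5 times in several cases. The precursors with separate and lower bounds went from 3 to 8 with no filter on low FPKM, where all 22 are counted (23.1% of all genes). At an FPKM of at least 10 they went to 1, and the other convertases from 4 to 2 (47.2% of all genes). The filters on FPKM change which genes are counted, in the lists and among all genes. The median log2 ratio of the 10 genes stayed negative, from -0.42 to -0.19. The value of -0.42, for the 8 genes with status OK, was added after seeing the data. The medians of the precursors and of the 5 lists together turned positive after division by the median ratio (0.02 and 0.01) and at an FPKM of at least 10 (0.13 and 0.06). Of the 10 log2 ratios, 8 kept their sign under all 5 settings of pseudocount and scaling, and those of CHGA and PCSK1N turned positive under 2 of them, at up to 0.06 and 0.07. PCSK1 ranged from -2.01 to -1.15. Counting error from depth is largest for the low genes, above all PCSK1 in processed cells, at 348 fragments along its longest transcript. Among values with status OK the deposited bounds were widest elsewhere. The upper bound lay 16.3% above the value for PCSK2 in processed cells, against 10.9% for PCSK1 there.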

Other observations

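Marker genes of the other cells that a Stage 6 culture can hold were also measured, and their part in the granin values was not tested. The 4 duct genes summed to 631 FPKM for live and 609 FPKM for processed cells, most of it KRT19 with 543 and 518 FPKM. KRT19 had separate and lower bounds in processed cells, while SOX9 and CFTR had separate and higher bounds. That is 1 lower and 2 higher of 4 genes, beside 43.7% and 28.1% of all genes tested. The 5 mesenchymal genes summed to 568 and 534 FPKM. Most of the mesenchymal sum was VIM, with 514 and 485 FPKM, while DCN was 2.97-fold higher and PDGFRB 3.65-fold lower in processed cells, both with separate bounds. The 4 hepatic genes summed to 953 FPKM for live and 1136 FPKM for processed cells. Separate and higher bounds in processed cells were found for 3 of them, beside 28.1% of all genes tested. The 4 pluripotency genes summed to 152 and 123 FPKM, most of it LIN28A with 119 and 88.7 FPKM. NANOG went the other way, with 1.27 and 7.34 FPKM and separate bounds, and POU5F1 had 7.92 and 8.53 FPKM with overlapping bounds. Of 6 acinar genes 3 reached an FPKM of 1, with sums of 20.4 and 25.7 FPKM. Of 4 immune genes 1 did so, AIF1, at 2.71 FPKM in live cells and listed at 0 in processed cells.

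In live cells 98 genes carried status FAIL, and 46 did in processed cells, each with a lower bound of 0. CHGA had the highest FPKM of the 46, and PAM ranked 6th among the 98.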
